A study of Mus musculus with 4 samples.

Results

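Matrix metalloproteinases (MMP), ADAM and ADAMTS proteases and the TIMP inhibitors were examined in mouse mammary tumor cells with and without the kinase JNK. Within these families, members were taken by gene symbol alone, as rows named Mmp, Timp, Adam or Adamts followed by a number, and 79 of 38713 genes qualified. These were 23 MMP, 4 TIMP, 33 ADAM and 19 ADAMTS genes. The families themselves were chosen with earlier results of these data known. The samples were 4 cell lines on a C57BL/6 background, grown from mammary tumors of female mice that had been bred. Each line came from a separate tumor and gave 1 library. In the JNK_WT group (labelled p53-/-, n = 2, replicates 1 and 2) Wap-Cre had deleted floxed Trp53. In the JNK_KO group (labelled p53-/- JNK-/-, n = 2, replicates 1 and 3) the same Cre had also deleted floxed Mapk8 and Mapk9, which encode JNK1 and JNK2, so the Trp53 deletion is common to both groups. Wap-Cre is active in mammary epithelium of mice that have been pregnant. Tumors were dispersed with collagenase and first plated on collagen I, so each library describes tumor cells selected by culture and not whole tumor tissue.

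All of these proteases except the TIMPs belong to the zinc-dependent metzincin group. MMPs are made as inactive precursors and, once activated, cut collagens and other matrix proteins. ADAMs sit in the membrane and release the outer parts of growth factors and receptors, and ADAMTS enzymes are secreted and cut proteoglycans or process procollagens. TIMPs bind the active site of these enzymes and block it. In the mammary gland, MMPs and TIMPs take part in branching and in the remodelling of the gland after weaning. Several MMP promoters are textbook targets of AP1, a dimer of JUN and FOS family proteins, and JUN is phosphorylated by JNK.

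The promoters of 4 MMP genes that lie in one cluster and share a short motif are shown first. Mmp13, Mmp3 and Mmp7 were picked by their expression, as genes higher in both JNK_KO lines, which is described below. A total of 10 MMP genes lie on chromosome 9 between 7272514 and 7699585 (mm10). The windows searched were those of RefSeq (GRCm38.p6), which run from 250 bases before to 50 bases after a gene's start. The letters searched were TGAGTCA, the consensus AP1 site, and TGACTCA, which is the same site on the other strand. Capitals mark the match in the 120 bases before the start of Mmp13 (chr9:7272394-7272513), Mmp3 (chr9:7445702-7445821), Mmp10 (chr9:7502222-7502341) and Mmp7 (chr9:7691970-7692089), all on the plus strand. Mmp10 was added after its values were seen, as a neighbor that holds the motif and whose groups overlapped.
Mmp13: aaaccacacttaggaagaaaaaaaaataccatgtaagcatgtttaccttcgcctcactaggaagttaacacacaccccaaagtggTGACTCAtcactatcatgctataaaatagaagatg
Mmp3: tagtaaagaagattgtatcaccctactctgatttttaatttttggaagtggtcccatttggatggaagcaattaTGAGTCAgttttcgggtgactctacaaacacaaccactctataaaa
Mmp10: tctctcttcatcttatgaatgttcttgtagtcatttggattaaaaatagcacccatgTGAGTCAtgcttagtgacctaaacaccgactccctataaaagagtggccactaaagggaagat
Mmp7: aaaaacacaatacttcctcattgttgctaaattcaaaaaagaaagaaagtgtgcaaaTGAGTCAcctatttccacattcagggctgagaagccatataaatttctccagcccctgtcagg

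The match began 35 bases before the start in Mmp13, 46 in Mmp3, 63 in Mmp10 and 63 in Mmp7. A window was found for 49 of the 79 members, and 10 of these 49 held the motif, beside 5.95% of all 27025 genes in the table. Among tested members with a window it was 4 of 19, the 4 printed above, beside 4.75% of the 8946 tested genes with one. Of the 10 genes in the chromosome 9 cluster, 7 held it, which are the 4 printed and the untested Mmp12, Mmp1a and Mmp1b. For Mmp12 the match lay in a window whose start is 2993 bases downstream of the gene's annotated start. The Mmp12 window near that annotated start held no match. Counted by window, some genes having several, the motif was present in 5.2% of 32851. A match is a description of the letters and not a measurement of AP1 binding. The windows of Adamts9, Adamts14 and Mmp15, which are described below, held no match. There was no window for Adam9, Adam12, Adamts4, Adamts5, Adamts7, Adamts10, Mmp2, Mmp9 and Mmp19.

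Values are in FPKM (fragments per kilobase of transcript, scaled to the mapped fragments of a library), and lines are given in the order replicate 1 then 2 for JNK_WT, and replicate 1 then 3 for JNK_KO. As a check of the labels, Mapk8 was at 23.9 and 19.1 FPKM in the JNK_WT lines and at 4.30 and 4.27 FPKM in the JNK_KO lines. Mapk9 was at 29.7 and 24.3 FPKM in JNK_WT and at 12.6 and 8.66 FPKM in JNK_KO. Both were thus lower in each JNK_KO line, although neither was at 0. Trp53, deleted in both groups by the labels, was at 1.55 and 4.15 FPKM in JNK_WT and at 5.72 and 4.28 FPKM in JNK_KO. FPKM over a whole gene do not separate deleted exons from those that remain. The upper quartile of the tested genes lay between 33.2 and 34.3 FPKM in the 4 libraries.

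The members were first sorted by whether they were expressed at all. Of the 79 members, 47 were under 1 FPKM in every library, and 13 of these 47 were listed at 0 in all 4. The 13 were Timp4 and 12 of the 21 ADAM genes known from testis, a subgroup in which no member reached 1 FPKM in any library. The neural ADAM genes Adam11, Adam22 and Adam23, which lack a working active site, were also under 1 FPKM throughout. A further 4 members reached 1 FPKM in a single library. These were Adam19 at 3.24 FPKM in JNK_KO replicate 1, Adamts8 at 1.35 FPKM in JNK_KO replicate 3, and Adamts6 and Mmp24 at 2.05 and 1.25 FPKM in JNK_WT replicate 1.

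The remaining 28 members were tested, that is, they reached 1 FPKM in at least 2 libraries. They were 12 MMP, 3 TIMP, 6 ADAM and 7 ADAMTS genes, and 19 of them reached 1 FPKM in all 4 libraries. Mmp7 was the only member that passed this filter through the JNK_KO libraries alone, and none passed through the JNK_WT libraries alone. Exons of 20 members, 11 of them tested, overlap those of another gene, and where they do the reads may belong to either. The tested ones were Mmp7, Mmp11, Mmp19, Mmp28, Timp3, Adam8, Adam15, Adam17, Adamts4, Adamts7 and Adamts9.

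**Figure D1:**
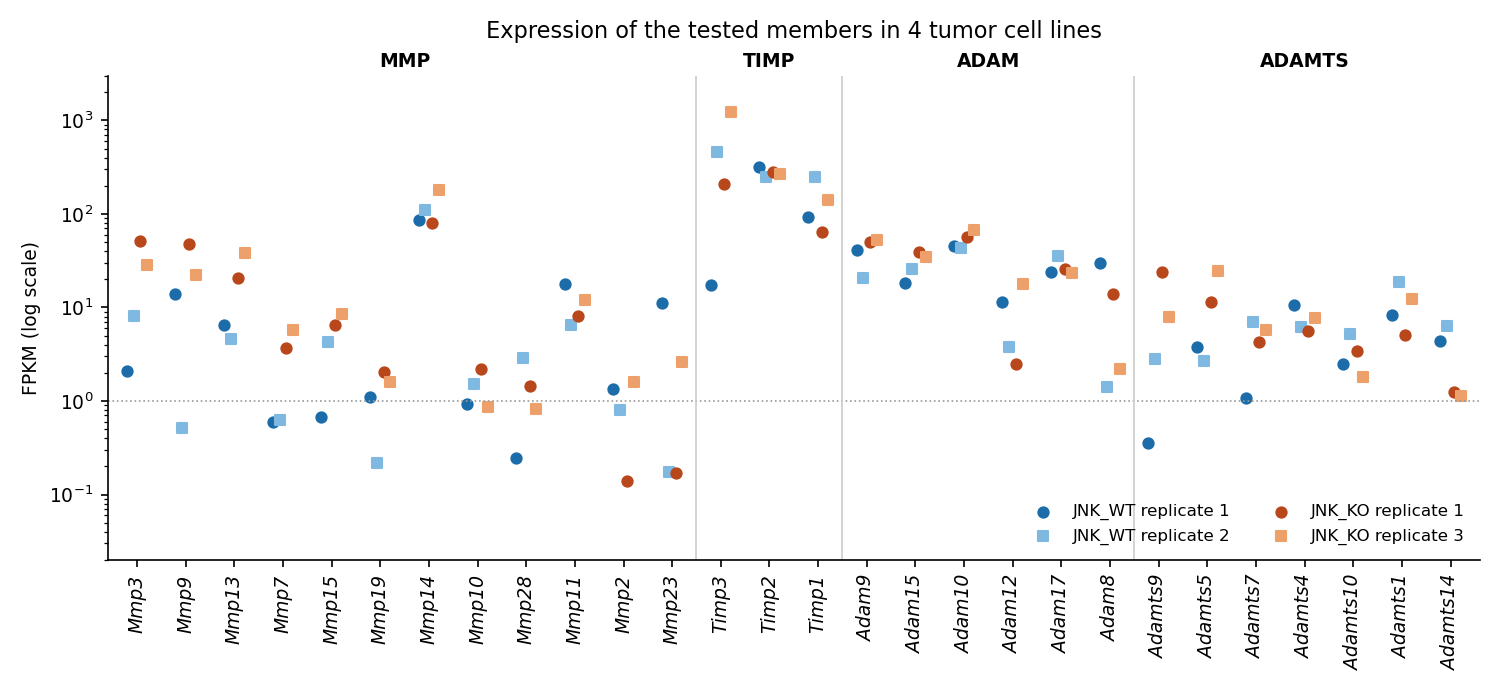
Expression of the 28 tested members in each cell line. The vertical axis is FPKM on a log scale, each point is 1 library (JNK_WT in blue, JNK_KO in orange), circles are replicate 1 of each genotype and squares are JNK_WT replicate 2 and JNK_KO replicate 3, and the dotted line marks 1 FPKM. Timp1, Timp2, Timp3 and Mmp14 lie highest, while Mmp3, Mmp13 and Mmp7 have both JNK_KO points above both JNK_WT points.

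To ask whether these genes differed with JNK genotype, log2(FPKM + 1) was compared between the JNK_KO and JNK_WT lines. No member was called (0 of 28), and none of all 12998 genes tested was called (0%). The smallest limma adjusted p-value among the members was 0.299, for Mmp13 and Mmp7. At an unadjusted limma p-value under 0.05 there were 6 members, 5 higher and 1 lower in JNK_KO cells (21.4% of the 28), while 7.63% of all genes tested were under 0.05. The 5 were Mmp3, Mmp7, Mmp13, Adamts5 and Adamts9, and the lower one was Adamts14. Since Mmp7 passed the filter only through the JNK_KO lines, where it was high, it had to differ, and without it the count was 5 of 27 (18.5%), with 4 higher and 1 lower. With 2 lines per group, an exact permutation test of a single gene cannot give a p-value under 0.33. The p-values set each difference against the spread between lines from separate tumors, which limma moderates with the spread of all genes. With 1 library per line, the spread between tumors and between libraries cannot be told apart. The differences below are descriptions of these 4 lines. In RNA from a whole culture, fewer cells of a type and less RNA per cell cannot be told apart.

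Without regard to a test, 10 members were higher and 2 lower in JNK_KO cells by a log2 difference over 0.75, which is 35.7% and 7.14% of the 28. Over all genes tested the shares were 9.25% higher and 6.43% lower. Both JNK_KO lines lay above both JNK_WT lines for 11 members (39.3%) and below them for 1 (3.57%), beside 18.3% and 16.7% of all genes. Both conditions together were met by 9 members that were higher and 1 that was lower, and by 7.18% and 4.96% of all genes. The 9 were Mmp3, Mmp7, Mmp9, Mmp13, Mmp15, Mmp19, Adam9, Adamts5 and Adamts9, and the other was Adamts14. Mmp7, which had to differ, is in each of these counts of higher members. Without it, 10 in place of 11 lay above without overlap, and 8 in place of 9 met both conditions. The median log2 difference of the tested members was 0.22, beside 0.01 over all genes. By family it was 0.56 for MMP, -0.06 for TIMP, 0.26 for ADAM and -0.26 for ADAMTS genes.

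**Figure D2:**
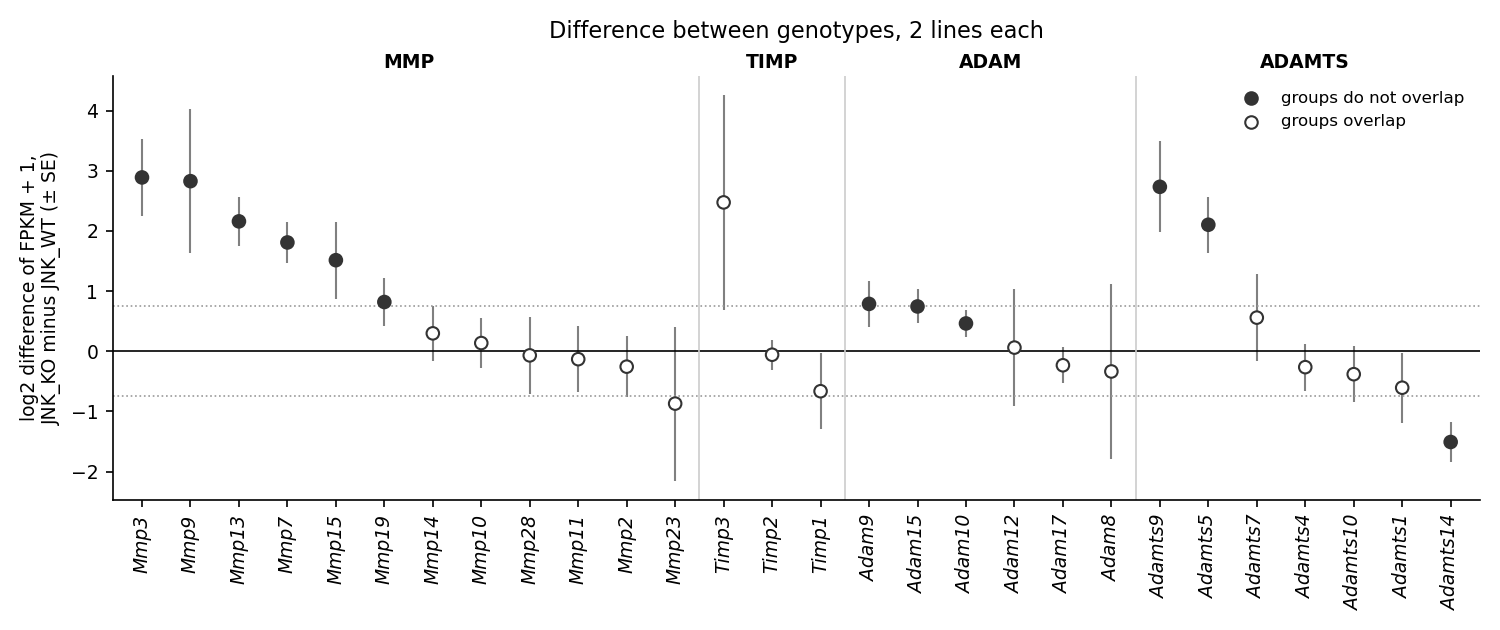
Log2 difference of FPKM + 1 between genotypes for each tested member, JNK_KO minus JNK_WT, with the standard error of the limma fit. Filled points are genes whose groups did not overlap, and dotted lines mark differences of 0.75. The filled points at the far left of the MMP panel run from 2.89 for Mmp3 down to 0.82 for Mmp19, and Adamts14 at -1.51 is the only filled point below 0.

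Within the chromosome 9 cluster, Mmp3, Mmp13 and Mmp7 were higher in both JNK_KO lines, and their neighbors were low or overlapped. Mmp3 (stromelysin-1, which cuts proteoglycans and fibronectin and activates other MMP precursors) was at 2.09 and 8.15 FPKM in JNK_WT and at 51.2 and 28.7 FPKM in JNK_KO. The lowest JNK_KO line was thus well above the highest JNK_WT line, and the ratio of the group means was 7.81. The log2 difference was 2.89 (SE 0.64, limma adjusted p-value 0.378). Mmp13 (collagenase-3, the main interstitial collagenase of the mouse) was at 6.47 and 4.65 FPKM in JNK_WT and at 20.5 and 38.1 FPKM in JNK_KO. Here the groups were apart as well, with a ratio of means of 5.27 and a log2 difference of 2.16 (SE 0.41, limma adjusted p-value 0.299). Mmp7 (matrilysin, an MMP of epithelial cells) was at 0.591 and 0.632 FPKM in JNK_WT and at 3.69 and 5.80 FPKM in JNK_KO. The JNK_WT lines were close to each other, and the log2 difference was 1.81 (SE 0.34, limma adjusted p-value 0.299). Since Mmp7 passed the filter only through the JNK_KO lines, its groups had to be apart.

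Mmp10 (stromelysin-2, a close relative of Mmp3) showed no such separation. It was at 0.938 and 1.53 FPKM in JNK_WT and at 2.2 and 0.856 FPKM in JNK_KO, so that the highest and the lowest library both came from JNK_KO lines. Its log2 difference was 0.14 (SE 0.41, limma adjusted p-value 0.999), and it turned to -0.13 under quantile normalization. The other 6 genes of the cluster were under 1 FPKM in every library. Among these, Mmp12, the macrophage elastase, ran from 0.273 to 0.678 FPKM, and Mmp8, the neutrophil collagenase, was at most 0.0192 FPKM. Mmp1a and Mmp1b, the mouse counterparts of interstitial collagenase, were at most 0.519 and 0.413 FPKM, and their reads may be divided between them. Thus, among the tested genes of the cluster, Mmp10 held the motif printed above and overlapped between groups, while Mmp3 and Mmp13 held it and did not. Mmp10 was near 1 FPKM, where such a comparison is weak. Mmp7 held the motif as well, but it passed the filter only through the JNK_KO lines and so had to differ. Mmp12, in its downstream window, and Mmp1a and Mmp1b held the motif too but were too low to be tested. Mmp12 was higher in both JNK_KO lines (0.273 and 0.351 against 0.439 and 0.678 FPKM). Mmp1a was lower in both (0.0886 and 0.519 against 0.0468 and 0.0167 FPKM), and Mmp1b overlapped.

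**Figure D3:**
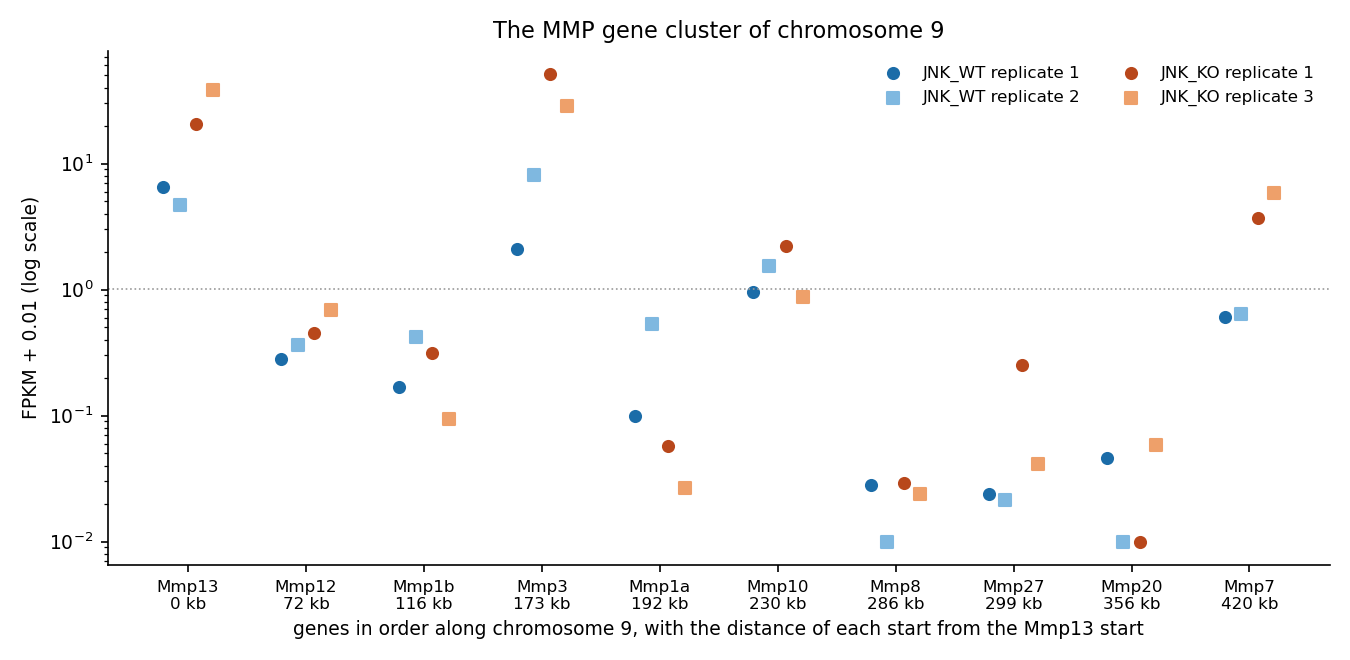
The 10 MMP genes of chromosome 9 in their order, with the distance of each start from the Mmp13 start in kilobases. The vertical axis is FPKM + 0.01 on a log scale and each point is 1 library. Mmp13, Mmp3 and Mmp7 have the JNK_KO points above the JNK_WT points, whereas Mmp10 overlaps and the other 6 genes lie under the dotted line at 1 FPKM.

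The gelatinases, which cut denatured collagen and basement membrane collagen IV, differed from each other in pattern. Mmp9 (chromosome 2, 164940780 to 164955850) was at 14 and 0.516 FPKM in JNK_WT and at 48.3 and 22.2 FPKM in JNK_KO. The groups did not overlap, but the JNK_WT lines lay further apart than the genotypes, with a gap of 3.31 on the log2 scale. The log2 difference of 2.83 (SE 1.19, limma adjusted p-value 0.711) fell to 1.17 without JNK_WT replicate 2. Mmp2, the gelatinase typical of stromal cells, was low in every line, at 1.35 and 0.797 FPKM in JNK_WT and at 0.140 and 1.60 FPKM in JNK_KO. Its groups overlapped.

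Among the membrane-type MMPs, Mmp14 (MT1-MMP, a collagenase of the cell surface that also activates the precursor of Mmp2) was the most abundant MMP of all. It was at 87.1 and 110 FPKM in JNK_WT and at 79.5 and 182 FPKM in JNK_KO. The groups overlapped and the log2 difference was 0.30 (SE 0.46, limma adjusted p-value 0.997), which was smaller than the gap of 1.19 between the JNK_KO lines. Mmp15 (MT2-MMP) was at 0.670 and 4.32 FPKM in JNK_WT and at 6.56 and 8.58 FPKM in JNK_KO. Its groups did not overlap, although the JNK_WT lines differed by 1.67 and the genotypes by 1.51 on the log2 scale (SE 0.64, limma adjusted p-value 0.712). Without JNK_WT replicate 1 this difference was 0.68, and without replicate 2 it was 2.35. Mmp16, Mmp17 and Mmp25 were under 1 FPKM in every library.

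Of the remaining tested MMPs, Mmp11, Mmp23 and Mmp28 overlapped between genotypes and Mmp19 did not. Mmp11 (stromelysin-3) was at 18 and 6.47 FPKM in JNK_WT and at 8.17 and 11.9 FPKM in JNK_KO, so that both JNK_KO lines fell between the JNK_WT lines. Mmp23 was at 11.0 FPKM in JNK_WT replicate 1, 2.63 FPKM in JNK_KO replicate 3, and 0.176 and 0.170 FPKM in the other two. Its log2 difference of -0.87 (SE 1.28, limma adjusted p-value 0.996) rested on the first of these lines and was 0.81 without it. Mmp19 was at 1.10 and 0.217 FPKM in JNK_WT and at 2.05 and 1.60 FPKM in JNK_KO, a log2 difference of 0.82 (SE 0.40, limma adjusted p-value 0.785) that was 0.43 without JNK_WT replicate 2. Mmp28 (epilysin) had values from 0.245 to 2.89 FPKM and a difference of -0.07.

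Summed over the family, MMP FPKM came to 146 and 142 in JNK_WT and to 226 and 307 in JNK_KO. Mmp14 made up 59.8% and 77.1% of these sums in JNK_WT and 35.2% and 59.3% in JNK_KO. Without Mmp14 the sums were 58.5 and 32.7 in JNK_WT and 147 and 125 in JNK_KO.

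By their mean over the 4 libraries, Timp3, Timp2 and Timp1 were the most abundant members, while Timp4 was listed at 0, and none of the 3 separated the genotypes. Timp2, which binds Mmp14 and serves in the activation of Mmp2, varied least. It was at 321 and 250 FPKM in JNK_WT and at 280 and 265 FPKM in JNK_KO, a log2 difference of -0.06 (SE 0.25, limma adjusted p-value 0.999). Timp1 was at 92.4 and 248 FPKM in JNK_WT and at 64.5 and 141 FPKM in JNK_KO, with overlapping groups and a log2 difference of -0.66 (SE 0.64, limma adjusted p-value 0.973). It was higher in JNK_WT replicate 2 and JNK_KO replicate 3 than in the other two lines.

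Timp3 (chromosome 10, 86300372 to 86349506), the TIMP that stays bound to matrix and also inhibits Adam17 and the aggrecan-cutting ADAMTS enzymes, varied most. It was at 17.3 and 458 FPKM in JNK_WT and at 209 and 1235 FPKM in JNK_KO. The highest level was 71.3 times the lowest, and the gap between the JNK_WT lines alone was 4.65 on the log2 scale. The log2 difference between genotypes was 2.47 (SE 1.78, limma adjusted p-value 0.928) and came to 0.15 without JNK_WT replicate 1. The gene whose exons Timp3 overlaps is Syn3. Of the 5 basal markers, the keratin Krt14 was likewise higher in JNK_WT replicate 2 and JNK_KO replicate 3, at 443 and 313 FPKM, than in JNK_WT replicate 1 and JNK_KO replicate 1, at 7.34 and 26.7 FPKM, and Trp63 followed the same order at 21.9 and 6.58 FPKM against 0.0706 and 1.16 FPKM. The other basal markers did not share this pattern between lines in full. Krt5 was at 61.9 FPKM in JNK_WT replicate 2 and at most 0.205 FPKM elsewhere, Acta2 was at 7.36 and 3.19 FPKM in JNK_WT and at 1.70 and 29.0 FPKM in JNK_KO, and Myh11 was at most 0.171 FPKM. The part of basal character in the Timp3 and Timp1 levels was not tested.

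The sum of TIMP FPKM was 431 and 956 in JNK_WT and 554 and 1641 in JNK_KO. Divided by the MMP sum, it came to 2.96 and 6.71 in JNK_WT and to 2.45 and 5.34 in JNK_KO. Transcripts of the inhibitors thus exceeded those of the MMPs in every line, and this ratio overlapped between genotypes.

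**Figure D4:**
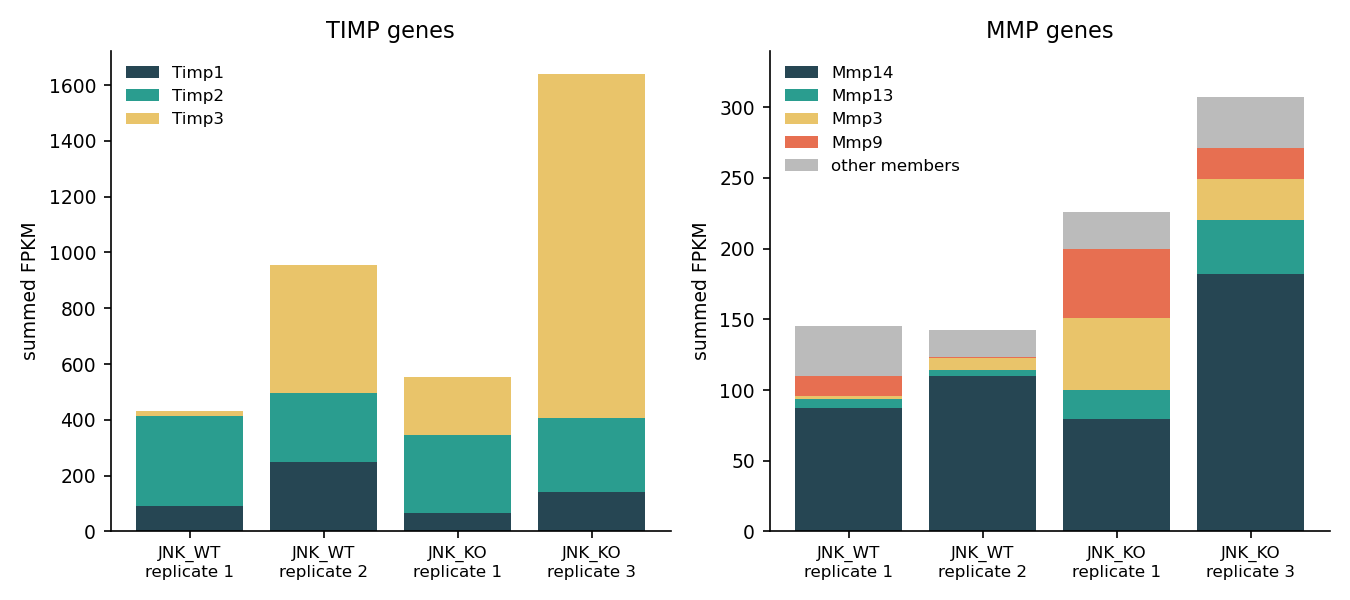
Summed FPKM of the TIMP genes (left) and MMP genes (right) in each library, with each gene as a part of the bar. Timp3 makes up 4.02% of the TIMP sum in JNK_WT replicate 1 and 75.3% in JNK_KO replicate 3, and Mmp3, Mmp9 and Mmp13 make up more of the MMP bar in the JNK_KO lines.

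Of the ADAM genes, 6 were tested, and all of them encode enzymes with a working active site. Adam10, the main sheddase of Notch receptors and cadherins, was the most abundant. It was at 45.8 and 43.2 FPKM in JNK_WT and at 56.8 and 67.1 FPKM in JNK_KO. The groups did not overlap, but the log2 difference was small, at 0.46 (SE 0.23, limma adjusted p-value 0.792). Adam9 was at 41.3 and 20.9 FPKM in JNK_WT and at 50.1 and 53.0 FPKM in JNK_KO, a log2 difference of 0.79 (SE 0.39, limma adjusted p-value 0.788) that was 0.31 without JNK_WT replicate 2 and 1.26 without replicate 1. Adam15 was at 18.1 and 25.7 FPKM in JNK_WT and at 38.8 and 34.9 FPKM in JNK_KO, a log2 difference of 0.75 (SE 0.28, limma adjusted p-value 0.658). Thus Adam9, Adam10 and Adam15 were all higher in both JNK_KO lines, by ratios of group means from 1.39 to 1.69.

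Adam17 (TACE, which releases tumor necrosis factor and EGF receptor ligands) overlapped between groups. It was at 23.8 and 35.4 FPKM in JNK_WT and at 25.7 and 23.5 FPKM in JNK_KO, a log2 difference of -0.23 (SE 0.30, limma adjusted p-value 0.991). Adam8, an ADAM best known from leukocytes and invasive tumor cells, was at 29.8 and 1.43 FPKM in JNK_WT and at 13.8 and 2.17 FPKM in JNK_KO. It was therefore higher in replicate 1 of each genotype, and its gap between lines was 3.66 in JNK_WT and 2.22 in JNK_KO. Adam12 was at 11.5 and 3.77 FPKM in JNK_WT and at 2.47 and 17.7 FPKM in JNK_KO, so that both extremes came from JNK_KO lines. The log2 differences of Adam8 and Adam12 were -0.34 (SE 1.46) and 0.06 (SE 0.98), and that of Adam12 turned to -0.04 under quantile normalization.

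Among the ADAMTS proteoglycanases, which cut aggrecan and versican, Adamts5 and Adamts9 were higher in both JNK_KO lines, and Adamts1 and Adamts4 were not. Adamts5 was at 3.76 and 2.67 FPKM in JNK_WT and at 11.5 and 24.8 FPKM in JNK_KO, a ratio of means of 5.65. Its log2 difference was 2.10 (SE 0.46, limma adjusted p-value 0.378). Adamts9 (chromosome 6, 92772699 to 92943492) was at 0.351 and 2.79 FPKM in JNK_WT and at 24.2 and 8.0 FPKM in JNK_KO. The groups were apart, with a ratio of means of 10.2 and a log2 difference of 2.73 (SE 0.76, limma adjusted p-value 0.478). Lines of the same genotype differed by 1.49 and 1.48, so the size of the difference varied with the line.

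Adamts1 lies next to Adamts5 on chromosome 16, with 53059 bases between them. Unlike its neighbor, it was at 8.41 and 18.9 FPKM in JNK_WT and at 5.09 and 12.3 FPKM in JNK_KO. Its groups overlapped and its log2 difference was -0.61 (SE 0.58, limma adjusted p-value 0.973). Adamts4 was at 10.6 and 6.13 FPKM in JNK_WT and at 5.57 and 7.75 FPKM in JNK_KO, also with overlapping groups. Its difference was -0.26 (SE 0.39).

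Adamts14, a procollagen N-propeptidase that trims fibrillar procollagen, was the only tested member lower in both JNK_KO lines. It was at 4.38 and 6.26 FPKM in JNK_WT and at 1.26 and 1.14 FPKM in JNK_KO, so that the JNK_WT mean was 4.43 times the JNK_KO mean. The log2 difference was -1.51 (SE 0.33, limma adjusted p-value 0.377). The related procollagen enzymes Adamts2 and Adamts3 were under 1 FPKM in every library. Adamts7, which cuts the cartilage matrix protein Comp, was at 1.09 and 6.94 FPKM in JNK_WT and at 4.30 and 5.79 FPKM in JNK_KO. Both JNK_KO values lay between the JNK_WT values. Adamts10 overlapped as well, with values from 1.81 to 5.14 FPKM.

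The spread between lines of one genotype was wide for these genes. Among the 28 tested members the median gap between the JNK_WT lines was 0.89 and that between the JNK_KO lines 0.73 on the log2 scale, beside 0.43 and 0.33 over all genes tested. For 9 members (32.1%) the difference between genotypes was larger than the gap within either genotype, which held for 23.6% of all genes. Mmp7 is counted here although it passed the filter only through the JNK_KO lines, and no share without it was computed. These 9 were Mmp3, Mmp7, Mmp13, Mmp19, Adam10, Adam15, Adamts5, Adamts9 and Adamts14. Mmp9, Mmp15 and Adam9, whose groups did not overlap either, had a gap between the JNK_WT lines that was larger than their difference between genotypes.

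**Figure D5:**
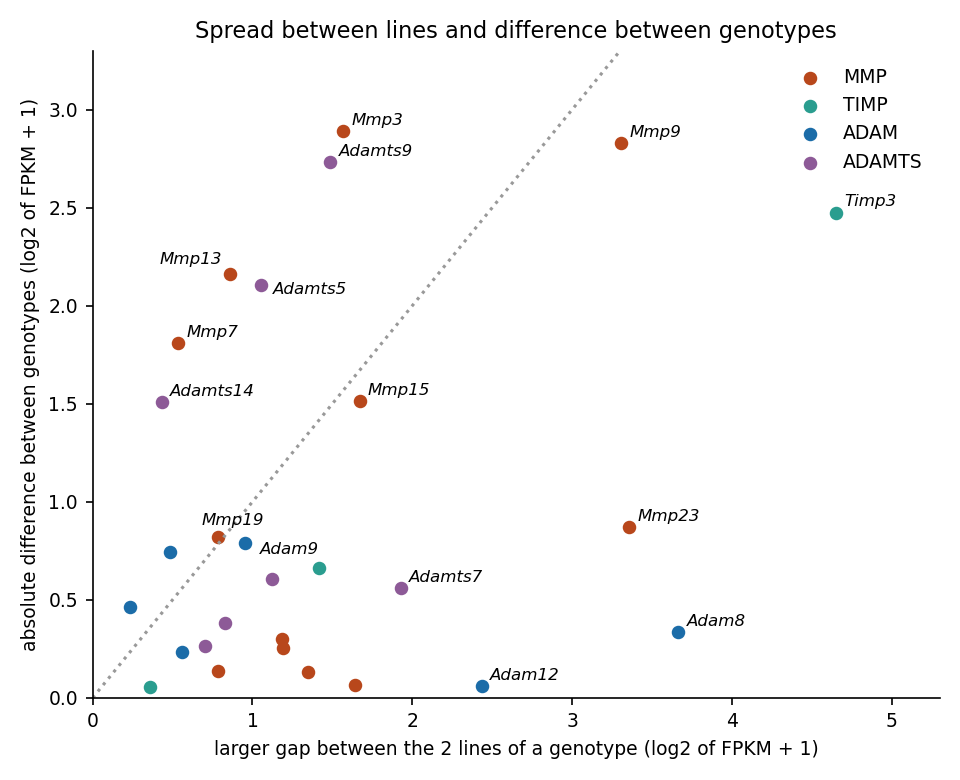
For each tested member, the absolute log2 difference between genotypes (vertical axis) against the larger of the gaps between the lines of a genotype (horizontal axis), with families in colors. Points above the dotted line of equality differ more between than within genotypes. Mmp3, Mmp7, Mmp13, Adamts5, Adamts9 and Adamts14 lie well above it, while Timp3, Adam8, Mmp23 and Adam12 lie far below it.

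Genes that act with these proteases were examined in 7 further lists. Of 69 listed genes 50 were tested and 0 were called, and 3 were higher and 3 lower at an unadjusted limma p-value under 0.05 (12% in all, beside 7.63% of all genes). The median log2 difference over the 50 genes was 0.24, beside 0.01 over all genes. Groups did not overlap for 14 of the 50, with 18% higher and 10% lower in JNK_KO cells. Over all genes the shares were 18.3% and 16.7%, and 35% in both directions together. These 14 include Adamtsl3 and Fbln1, which were higher, and Comp, which was lower. Each of them passed the filter only through the group where it was high, so it had to differ. Comp is also among the 3 lower genes at an unadjusted limma p-value under 0.05. No share without these genes was computed.

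In the plasminogen system, which activates several MMP precursors, 6 of 8 genes were tested. Groups did not overlap for 2 of these (33.3%), both lower in JNK_KO cells, beside 16.7% lower among all genes. Plau, the urokinase plasminogen activator, was at 761 and 52.8 FPKM in JNK_WT and at 42.8 and 41.3 FPKM in JNK_KO. JNK_WT replicate 1 was far above the other 3 lines, and the log2 difference was -2.23 (SE 1.29, limma adjusted p-value 0.855). The urokinase receptor gene Plaur was at 84.5 and 81.7 FPKM in JNK_WT and at 52.0 and 24.8 FPKM in JNK_KO, a log2 difference of -1.19 (SE 0.41, limma adjusted p-value 0.604).

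Among enzymes and carriers that mature MMPs and ADAMs, 10 of 13 genes were tested, and groups did not overlap for 2 (20%), both higher in JNK_KO cells, which is near the 18.3% of all genes. These were 2 tetraspanins that escort Adam10. Tspan17 was at 2.56 and 1.45 FPKM in JNK_WT and at 14.1 and 15.0 FPKM in JNK_KO, a log2 difference of 2.39 (SE 0.34, limma adjusted p-value 0.203). Tspan5 was at 8.71 and 12.2 FPKM in JNK_WT and at 16.6 and 14 FPKM in JNK_KO, a log2 difference of 0.52 (SE 0.31). The other tested tetraspanins of the list, Tspan14 and Tspan33, overlapped, with differences of -0.25 (SE 0.26) and -0.42 (SE 0.82). Tspan10 and Tspan15 were not tested.

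Of the ADAMTS-like genes, relatives of ADAMTS that lack the protease domain, 4 of 7 were tested and none overlapped between groups, with 3 higher and 1 lower in JNK_KO cells, where 35% of all genes did not overlap. Adamtsl3 and Adamtsl4 had log2 differences of 1.15 (SE 0.45) and 0.84 (SE 0.27), with limma adjusted p-values of 0.665 and 0.552. Adamtsl3 passed the filter only through the JNK_KO lines. Of 10 other regulators 7 were tested, and groups did not overlap for Fbln1 only (14.3%, under the 35% of all genes), which also passed the filter only through the JNK_KO lines (log2 difference 1.26, SE 0.51). Pcolce2, which aids procollagen processing, had a difference of 1.15 (SE 0.97) with overlapping groups. Reck, a membrane inhibitor of MMPs, was under 1 FPKM in every library.

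Of 20 ADAM substrates 18 were tested, of which 3 were higher and 1 lower in JNK_KO cells without overlap (22.2%, under the 35% of all genes). Cx3cl1, a membrane-bound chemokine released by Adam10 and Adam17, was at 19.6 and 35.4 FPKM in JNK_WT and at 59.4 and 72.9 FPKM in JNK_KO (log2 difference 1.29, SE 0.36, limma adjusted p-value 0.485). Tnf had a difference of 1.25 (SE 0.81) and overlapped. Among 6 proteoglycan and matrix substrates 4 were tested. Comp was at 1.44 and 1.8 FPKM in JNK_WT and at 0.0225 and 0.0318 FPKM in JNK_KO, a log2 difference of -1.35 (SE 0.29, limma adjusted p-value 0.378), and it passed the filter only through the JNK_WT lines, where it was high. Bgn was at 85.1 FPKM in JNK_WT replicate 1 and between 1.13 and 3.72 FPKM in the other lines. In the astacin family only Bmp1 was tested, with a difference of -0.01.

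Because MMP genes are often expressed by stromal cells, cell type markers were examined beside these results. The 5 luminal markers summed to 3059 and 2072 FPKM in JNK_WT and to 895 and 1744 FPKM in JNK_KO, and all 5 were lower in JNK_KO on average. Of these, Epcam and Krt8 had log2 differences of -1.19 (SE 0.46) and -1.0 (SE 0.48) and groups that did not overlap. That is 40% of the list, beside 16.7% of all genes that were lower without overlap. Krt8 was only just apart, at 564 FPKM in JNK_WT replicate 2 and 526 FPKM in JNK_KO replicate 3. Krt18, Krt19 and Cdh1 overlapped. The 5 basal markers summed to 14.9 and 530 FPKM in JNK_WT and to 29.7 and 349 FPKM in JNK_KO.

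The 8 fibroblast markers summed to 12.0 and 1.64 FPKM in JNK_WT and to 108 and 177 FPKM in JNK_KO. Most of the JNK_KO sum came from Dcn, at 79.7 and 162 FPKM, and Pdgfra, at 24.7 and 7.82 FPKM, both of which were under 1 FPKM in the JNK_WT lines and passed the filter only through JNK_KO. Col1a2 went the other way, at 10.3 and 0.374 FPKM in JNK_WT and at 0.698 and 2.56 FPKM in JNK_KO (log2 difference -0.68, SE 1.12), and made up most of the sum in JNK_WT replicate 1. Pdgfrb was at 0.0404 and 0.194 FPKM in JNK_WT and at 2.17 and 2.99 FPKM in JNK_KO. Thy1, which was not tested, was at 0.0861 and 0.0722 FPKM against 0.540 and 1.19 FPKM. Of the 4 tested fibroblast markers, 3 (75%) were higher in JNK_KO without overlap, beside 18.3% of all genes. These 3, Dcn, Pdgfra and Pdgfrb, all passed the filter only through JNK_KO. In contrast, Col1a1, Fap and Lum were under 1 FPKM in every library. The fibroblast sum was thus higher, and the luminal sum lower, in the same lines as the 9 members that were higher in JNK_KO cells, and the part of these markers in those differences was not tested. All 5 endothelial markers were under 1 FPKM throughout. Of the 7 leukocyte markers 4 were under 1 FPKM in every library, including Ptprc at no more than 0.0134 FPKM. S100a8 was at 2.73 and 3.52 FPKM in JNK_WT and at 11.4 and 8.95 FPKM in JNK_KO, and Cd68 ran from 2.65 to 20.0 FPKM with overlapping groups.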

How the data were processed

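RNA was measured by sequencing in 4 mouse mammary tumor cell lines, 2 JNK_WT and 2 JNK_KO, with 1 library per line. Group and replicate number came from the sample titles. Per the study's methods, the authors trimmed single-end reads with Trimmomatic, sampled them with seqtk, aligned them to mm10 with Bowtie2 and TopHat2 2.0.14, and deposited FPKM from Cufflinks 2.2.1. The gene annotation was not given in the sources used here. Cufflinks divides shared reads between transcripts by an estimate, so close paralogs such as Mmp3 and Mmp10 can exchange reads. Strand was not stated, so overlapping genes on opposite strands could not be told apart.

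Of 38741 rows, 27 with symbols turned into dates and 1 without a value were left out. Genes with at least 1 FPKM in at least 2 libraries were fitted as log2(FPKM + 1) with limma 3.58.1 (intensity trend, two-sided, Benjamini-Hochberg over all 12998 genes) in R 4.3.3. Calls needed an adjusted p-value under 0.05 and a log2 difference over 0.75 in either direction. Both limits are those of the study, whose own test needs alignments. The script was tested on simulated data. No count model was fitted because FPKM are not counts. The paper's methods give the sampled reads as an average per sample and not for each library. The number of reads behind each value is unknown, so no interval from counts was computed.

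Members, gene lists and named genes were chosen with earlier results of these data known. Values in every library are given for members with well known roles, for the 3 members with the largest difference in each family and for those over 0.75 whose groups did not overlap. They are also given for the 2 with the widest gap between lines and the most abundant member of each family. Outside the families, the 2 genes with the largest difference in each list were named. Positions came from GENCODE M21 (GRCm38, the assembly of mm10), in which all 79 members were found by symbol, and promoter sequences came from RefSeq (GRCm38.p6). A listed leukocyte gene, Adgre1, was found under its older symbol Emr1. Python 3.11.15 with pandas 2.3.3 served for summaries, and matplotlib 3.10.9 for figures. The alternatives tried were other pseudocounts, filters, scalings, variance models and thresholds, and fits without each library.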

Additional observations from a re-analysis of the deposited data

How the results depend on the processing

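No paired analysis was possible, since each line came from a separate tumor and nothing given links a JNK_WT line to a JNK_KO line. Nothing was called among the members under any setting run. The count of called genes over the whole table by limma was 0, with 992 genes at an unadjusted p-value under 0.05. It became 10 and 14 when the added constant was 0.1 and 0.5, and 14 when the prior variance had no trend, and the cause was not tested. At the looser adjusted p-value limit of 0.1 it was 25. It was 0 under the other filters, scalings, thresholds and fits.

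The number of members over 0.75, which was 12, ranged from 8 to 17 over all settings. The number of members whose groups did not overlap was 12, and it became 28 of 66 without a filter, where more members entered, and 19 to 21 in fits that each left out one library, where a lone library overlaps less often by construction. The median difference of the tested members was 0.22 and ran from 0.01 without a filter to 0.63 without JNK_KO replicate 1.

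Of 26 named and tested members, 24 kept their direction under quantile normalization, while Adam12 (-0.044) and Mmp10 (-0.13) turned. Under both other pseudocounts and upper-quartile scaling all 26 kept it. Fits without 1 library could not turn the 12 members whose groups did not overlap, because such groups keep their direction by construction. Such fits left the direction of 14 members as it was, these 12 included, along with Adamts1 (-1.17 to -0.043) and Timp3 (0.15 to 4.80). The other 12 changed sign in at least 1 such fit, and their differences ran from -1.16 to 1.28 for Adam12, -0.51 to 0.046 for Adam17, -2.17 to 1.5 for Adam8, -0.62 to 0.089 for Adamts4, -0.40 to 1.52 for Adamts7, -0.26 to 0.53 for Mmp10, -0.80 to 0.54 for Mmp11, -0.30 to 0.89 for Mmp14, -0.85 to 0.34 for Mmp2, -2.55 to 0.81 for Mmp23, -1.37 to 0.044 for Timp1 and -0.24 to 0.12 for Timp2. Values under about 1 FPKM can rest on few reads, more so in short genes, and the number of reads behind each value is unknown.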
